A study of Mus musculus with 10 samples.

Results

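Hair keratins, keratin-associated proteins and trichohyalin are the structural proteins of the growing hair. The members were taken by symbol: every entry whose symbol begins with Krtap, 22 named keratins and Tchh. They made 76 of the 23282 entries in each table, and 72 of them had a read in at least 1 library. Of the 53 Krtap genes, 19 code for ultra-high sulfur and 14 for high glycine-tyrosine proteins by the amino acid composition of the annotated protein. The remaining 20 are called high sulfur here without a minimum of cysteine, and hold 4.0 to 29.8% of it. Another 13 members are keratins of the hair shaft (7 type I, 6 type II) and 8 are keratins of the inner root sheath (4 type I, 4 type II). Krt75, a keratin of the companion layer between the inner and the outer root sheath, and Tchh stand alone.

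The study profiled whole skin from C57BL/6 mice at 5 months of age by 3′ end RNA sequencing. Its 10 libraries are 5 from mice with a keratinocyte-specific loss of STAT3 (STAT3cKO) and 5 from wild-type mice (WT), and its title asks how STAT3 bears on the skin barrier through SPINK5 and KLK5. The sources used here do not give the promoter that drove the ablation, sex, litter, skin site or hair cycle stage. They also leave unsaid whether the libraries are from different animals, so a p-value measures the spread between libraries, which may be technical in part.

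A hair follicle cycles between growth (anagen), regression and rest, and the shaft and inner root sheath are built only during growth, by the matrix cells of the bulb. Keratin filaments of a type I and a type II partner are laid down first in the forming shaft, and the keratin-associated proteins are then packed between them. The inner root sheath, with its own keratins and trichohyalin, molds the rising shaft and is shed before the hair leaves the skin. In whole skin, fewer cells of a type and less of an RNA per cell cannot be told apart.

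The hair keratin genes lie in clusters, and most promoters matched here hold a feature that the choice by symbol did not use. Shown here are the 70 bases before the annotated start of members chosen by hand, 5′ to 3′ on the coding strand. The sequences are from RefSeq on GRCm38.p6, with the 6 letters TATAAA in capitals. The members shown are 2 inner root sheath keratins, 1 shaft keratin, Krt75 and the high glycine-tyrosine gene with the highest values. With them are 2 neighboring high sulfur genes that differed in their levels across libraries.
Krt25, chr11:99322952-99323021, minus strand: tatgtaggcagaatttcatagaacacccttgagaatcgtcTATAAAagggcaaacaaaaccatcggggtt
Krt71, chr15:101743098-101743167, minus strand: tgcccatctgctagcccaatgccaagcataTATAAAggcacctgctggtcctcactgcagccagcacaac
Krt32, chr11:100088270-100088339, minus strand: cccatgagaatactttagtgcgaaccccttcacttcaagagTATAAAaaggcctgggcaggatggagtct
Krtap3-1, chr11:99566631-99566700, minus strand: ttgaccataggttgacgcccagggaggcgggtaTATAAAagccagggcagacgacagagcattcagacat
Krtap3-2, chr11:99556854-99556923, minus strand: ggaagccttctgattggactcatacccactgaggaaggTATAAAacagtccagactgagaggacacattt
Krtap8-1, chr16:89487953-89488022, minus strand: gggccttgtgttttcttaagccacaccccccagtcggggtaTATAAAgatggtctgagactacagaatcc
Krt75, chr15:101573905-101573974, minus strand: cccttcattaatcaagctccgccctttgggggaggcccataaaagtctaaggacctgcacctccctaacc

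RefSeq promoter windows of 250 bases before to 50 after the start were matched for 64 of the 76 members. TATAAA was found on either strand in 51 of the 64 windows (79.7%), against 14.2% of 27025 promoters with 1 per gene. On the coding strand it began 40 to 20 bases before the start in 36 members (56.2%), against 2.22% of all promoters. The median start was 30 bases before. The sequences shown above hold it more often than the members as a whole. The windows of Tchh and Krtap3-3, which are not shown, held no TATAAA on either strand. CTTTGAA, a LEF/TCF-type element, was present in 4 of 7 shaft keratin windows and 7 of 18 high sulfur windows but in 0 of 16 ultra-high sulfur windows, against 5.27% of all promoters. The element AGATAA, of the type that Gata3 binds, stood in 4 of 7 inner root sheath and 0 of 7 shaft keratin windows. It also stood in 4 of 18 high sulfur, 3 of 16 ultra-high sulfur and 4 of 14 high glycine-tyrosine windows. The share of all promoters was 11.4%. These are matches of letters on both strands, with no overlap rule between elements, and the members are related by gene duplication, so they are not independent examples.

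**Figure D1:**
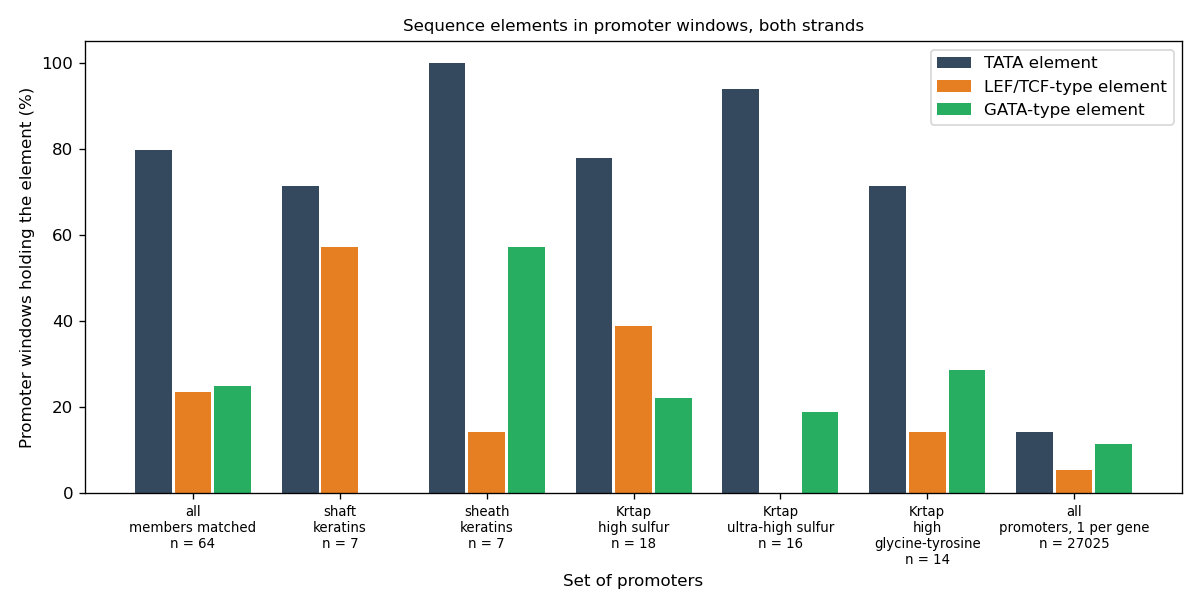
Percent of promoter windows (250 bases before to 50 after the start) that hold each of 3 sequence elements on either strand, for the matched members, for their classes and for all promoters (bars, y axis in percent, n under each set). The TATA element reached 79.7% of the members' windows against 14.2% of all windows.

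Positions followed the families. Of the 76 members, 33 lie on chromosome 11 (all 7 shaft and 4 sheath keratins of type I and 22 Krtap genes), 10 on chromosome 15 (type II keratins and Krt75), 23 on chromosome 16, 5 on chromosome 7, 3 on chromosome 10 and 1, Tchh, on chromosome 3. All 14 high glycine-tyrosine genes are among those on chromosome 16. The position of Krt85 was not analysed here.

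Estimated depth was 7470000 to 18400000 reads in STAT3cKO libraries and 7140000 to 16700000 reads in WT libraries. In STAT3cKO 2, WT 3, STAT3cKO 3 and WT 5, 13308, 11441, 11319 and 11267 of the 23282 entries had no read. The other libraries had 8565 (WT 4) to 10866 (WT 1) such entries. No read of a gene says less where more entries have none. Stat3 itself averaged 10.1 ± 0.48 in STAT3cKO libraries and 9.72 ± 0.56 in WT libraries (log2 value, SD, n = 5 each). The deleted part of the gene is not given, and reads of the 3′ end in whole skin, which also holds cells with intact Stat3, do not check the labels. The skin label was borne by its markers: of 11 markers of interfollicular epidermis, 9 had reads in every library, and their mean log2 value was 11.4 to 12.8 in STAT3cKO libraries and 10.2 to 11.4 in WT libraries.

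Expression of the hair genes was a matter of single libraries in both genotypes. A read was found for 61, 6, 69, 8 and 62 of the 76 members in STAT3cKO 1 to 5, against 7, 8, 26, 72 and 20 members in WT 1 to 5. Together they took 0.645, 0.0236, 7.96, 0.0137 and 0.692% of all scaled reads in STAT3cKO 1 to 5, and 0.0188, 0.0049, 0.0558, 10.8 and 0.0142% in WT 1 to 5. In STAT3cKO 3 the 95% Wilson interval of the share was 7.94 to 7.98%, and in WT 4 it was 10.78 to 10.82%, for counting error only. STAT3cKO 3 and WT 4 were thus high, STAT3cKO 1 and 5 were intermediate, and the other 6 libraries, 2 STAT3cKO and 4 WT, were low. Detection was often thin in WT 5, where 13 of the 20 members with a read had 1 to 10 reads.

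The 2 highest libraries were shared by nearly all members. Among the 72 members with a read, 59 were highest in WT 4 and 13 in STAT3cKO 3, and these 2 libraries were the 2 highest for 69 of them. STAT3cKO 1, 3, 5 and WT 4 were the 4 highest for 52. No member had genotype groups that did not overlap (0 of 76, and 0 of the 21 that were tested). Of the 11536 tested genes, 395 did (3.42%). So few tested members cannot tell 0 from that share.

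**Figure D2:**
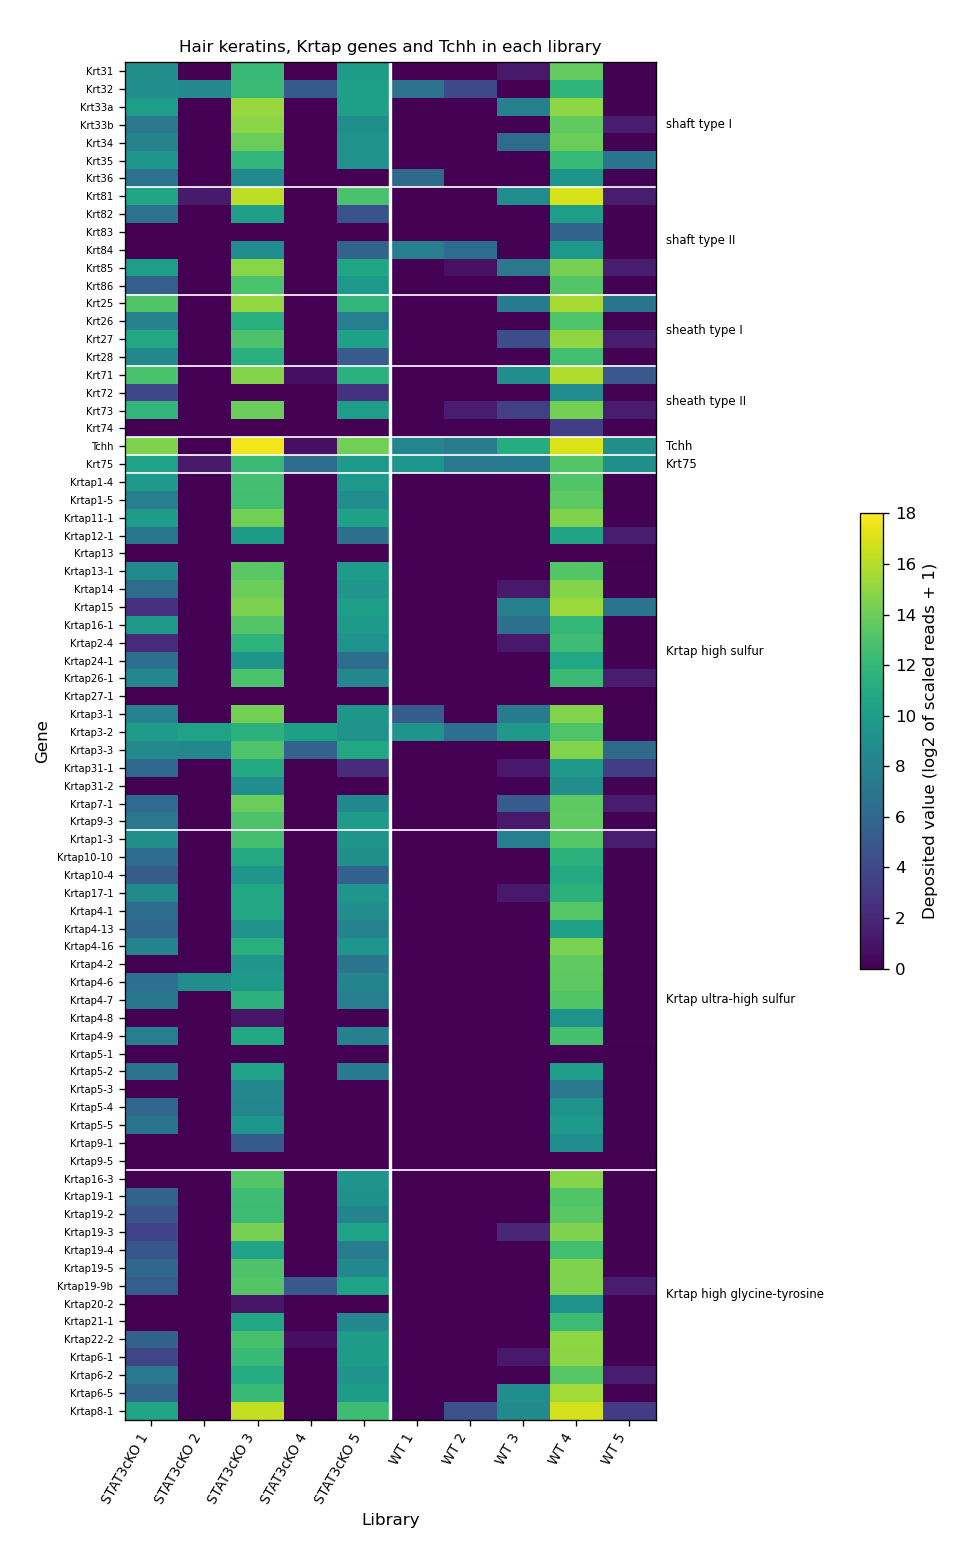
Deposited value (log2 of scaled reads + 1, color scale) of each of the 76 members (rows, by class) in the 5 STAT3cKO and 5 WT libraries (columns). STAT3cKO 1, 3 and 5 and WT 4 are bright through nearly all classes. The other 6 libraries are mostly dark, with 16 members at 5 or more in WT 3 and 4 to 7 in each of the rest. Tchh, Krt75, Krt32, Krtap3-2 and Krtap3-3 are bright in some of these 6 libraries but not in all.

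All single values that follow are deposited log2 values of 3′ end reads, which count transcripts irrespective of their length, and a library with no read is named as such. Among the inner root sheath keratins, Krt25 and Krt71, whose mutations give wavy-coated mice, had the most reads. Krt25 had 13.15, no read, 15.05, no read and 11.82 in STAT3cKO 1 to 5, against no read, no read, 7.43, 15.64 and 7.03 in WT 1 to 5. Krt71 had 12.80, no read, 14.66, 0.77 (a single read) and 11.52 in STAT3cKO 1 to 5, against no read, no read, 8.83, 15.87 and 4.89 in WT 1 to 5. The groups overlapped over the whole range in both genes, and STAT3cKO 1, 3 and 5 and WT 4 held the 4 highest values.

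Krt26, Krt27, Krt28 and Krt73 had the same 4 highest libraries at lower levels, and Krt72 and Krt74 did not. Krt27, a type I partner, had 10.71, no read, 12.96, no read and 10.27 in STAT3cKO 1 to 5, against no read, no read, 4.33, 14.98 and 1.36 in WT 1 to 5. Krt73 had 11.88, no read, 13.88, no read and 10.05 in STAT3cKO 1 to 5, against no read, 1.35, 3.40, 14.25 and 1.36 in WT 1 to 5. WT 4 was the highest library for both. Krt26 and Krt28 had reads only in STAT3cKO 1, 3 and 5, at 5.20 to 11.26, and in WT 4, at 13.04 and 12.56. Krt72 had 3.86 in STAT3cKO 1 and 2.60 in STAT3cKO 5, against 8.66 in WT 4, with no read in STAT3cKO 3 or the remaining libraries. Krt74 had reads only in WT 4, at 3.36. Type II Krt72 thus differed from Krt71 and Krt73 in having no read in STAT3cKO 3, a library with an estimated 13902 reads of Krt73. That library had no read for 11319 entries, so the absence has limited weight. Krt74 had an estimated 7.7 reads in WT 4, against 338 of Krt72, so its absence elsewhere says little.

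Tchh codes for trichohyalin, which fills granules of the inner root sheath and medulla and is cross-linked there. It had 14.49, no read, 17.64, 0.77 and 14.14 in STAT3cKO 1 to 5, against 8.26, 7.54, 11.14, 16.99 and 8.99 in WT 1 to 5. It was the member with the most reads in STAT3cKO 1, 3 and 5 and in WT 2, 3, 4 and 5. All 5 WT libraries had Tchh at 7.54 or more, while STAT3cKO 2 had no read and STAT3cKO 4 a single read. Krt75 was detected more widely than any sheath keratin, at 10.47, 1.29, 12.25, 6.46 and 9.63 in STAT3cKO 1 to 5, against 9.46, 7.31, 7.45, 13.15 and 8.98 in WT 1 to 5. It was the 1 member with a read in all 10 libraries. Its exons overlap a microRNA gene on the opposite strand, and the use of strand in counting is not given in the sources used here.

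Shaft keratins of type I and type II pair in the cortex and cuticle. Krt81, a cortex type II keratin, was the most abundant of them, at 10.68, 1.29, 16.23, no read and 12.83 in STAT3cKO 1 to 5, against no read, no read, 8.78, 16.88 and 1.36 in WT 1 to 5. Krt33a, a cortex type I keratin, had 10.03, no read, 15.23, no read and 10.18 in STAT3cKO 1 to 5, against no read, no read, 7.84, 14.94 and no read in WT 1 to 5. Krt33b, Krt34, Krt31 and Krt86 lay at 5.46 to 14.87 in STAT3cKO 1, 3 and 5 and at 13.18 to 13.99 in WT 4, and at 6.37 or less in every other library. In Krt33a and Krt33b the highest value was in STAT3cKO 3, and in Krt31 and Krt81 it was in WT 4.

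Krt35 and Krt85 are the first shaft keratins made above the matrix. Krt35 had 9.43, no read, 11.82, no read and 9.10 in STAT3cKO 1 to 5, against no read, no read, no read, 12.07 and 6.96 in WT 1 to 5. Krt85 had 10.01, no read, 14.77, no read and 10.66 in STAT3cKO 1 to 5, against no read, 0.82, 7.13, 14.34 and 1.36 in WT 1 to 5. These early keratins had their highest values in STAT3cKO 1, 3 and 5 and WT 4, as the cortex keratins did. The next library was WT 5 for Krt35 and WT 3 for Krt85.

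Of the keratins known from the human hair cuticle, Krt82 had no read in 6 libraries, while Krt32 was also detected in low libraries. Krt82 had 6.79, no read, 10.17, no read and 4.53 in STAT3cKO 1 to 5, against 10.05 in WT 4 and no read in the other 4 WT libraries. Krt32 had 8.86, 8.50, 12.26, 5.12 and 10.18 in STAT3cKO 1 to 5, against 6.80, 3.99, no read, 11.77 and no read in WT 1 to 5. All 5 STAT3cKO libraries had Krt32 reads, STAT3cKO 2 and 4 among them, and 3 of 5 WT libraries did, with WT 4 above all but STAT3cKO 3. Its 4 highest libraries were nonetheless the common ones. Krt32 overlaps the exon of an annotated gene, Gm11571, on the opposite strand.

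Krt36 and Krt84 are hard keratins that are also known from the tongue. Krt84 had no read, no read, 8.74, no read and 5.74 in STAT3cKO 1 to 5, against 7.72, 6.34, no read, 9.59 and no read in WT 1 to 5. Krt36 had 6.75 in STAT3cKO 1 and 8.60 in STAT3cKO 3, against 6.24 in WT 1 and 9.33 in WT 4, and no read elsewhere. WT 1 thus had an estimated 317 reads of Krt84 and 112 of Krt36 while it had none of the cortex keratins. Krt83 had reads only in WT 4, at 5.66.

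Among the keratin-associated proteins the high glycine-tyrosine class, small proteins of the cortex matrix, held the gene with the most reads in STAT3cKO 1, 3 and 5 and WT 4. This gene, Krtap8-1, had 10.61, no read, 16.33, no read and 12.38 in STAT3cKO 1 to 5, against no read, 4.47, 8.56, 16.78 and 3.10 in WT 1 to 5. Krtap6-5 had 5.94, no read, 12.19, no read and 9.96 in STAT3cKO 1 to 5, against no read, no read, 8.83, 15.53 and no read in WT 1 to 5. Both genes were highest in WT 4, and Krtap6-5 in WT 3 was above its value in STAT3cKO 1. Krtap19-9b had 5.38, no read, 13.15, 5.00 and 10.46 in STAT3cKO 1 to 5, against 14.52 in WT 4, 1.36 in WT 5 and no read in WT 1 to 3. Krtap19-3 had 3.60, 14.32 and 10.46 in STAT3cKO 1, 3 and 5, against 14.50 in WT 4 and 1.91 in WT 3, and no read elsewhere. In STAT3cKO 1 the class was low for its number of genes: 11 of 14 had a read, but 11 of the 14 were below 6, the others being Krtap8-1, Krtap6-2 at 7.30 and Krtap19-5 at 6.07.

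In the high sulfur class, neighboring genes on chromosome 11 differed in how far they were detected in the low libraries. Krtap3-2 had 9.88, 10.34, 11.53, 10.26 and 9.23 in STAT3cKO 1 to 5, against 9.34, 6.57, 9.65, 13.08 and no read in WT 1 to 5. Krtap3-3 had 8.49, 8.37, 13.07, 5.68 and 10.72 in STAT3cKO 1 to 5, against no read, no read, no read, 14.58 and 6.26 in WT 1 to 5. Krtap3-1, the next gene, had 8.003, no read, 14.26, no read and 9.50 in STAT3cKO 1 to 5, against 5.26, no read, 7.37, 14.59 and no read in WT 1 to 5. Krtap3-1 and Krtap3-3 had STAT3cKO 1, 3 and 5 and WT 4 as their 4 highest libraries, and Krtap3-2 did not. Krtap3-2 was at an estimated 924 reads in STAT3cKO 2 and 1668 in STAT3cKO 4, where Krtap3-1 had none. It also had 976 reads in WT 1, 120 in WT 2 and 589 in WT 3. No part of the last 400 bases of the transcripts of these 3 genes was shared in 50-base windows with another gene.

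Krtap15, a high sulfur class gene by composition whose protein holds 4.0% cysteine, had 2.57, no read, 14.46, no read and 10.10 in STAT3cKO 1 to 5, against no read, no read, 7.86, 15.31 and 6.94 in WT 1 to 5. Its exon overlaps 4930553J12Rik on the same strand and 21.5% of the windows in its last 400 bases occur in that gene, so its reads may be split. From this class, Krtap13 and Krtap27-1, had no read in any library.

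Ultra-high sulfur proteins are cysteine-rich and known from the cuticle and cortex. Krtap1-3 had 8.87, no read, 12.70, no read and 9.30 in STAT3cKO 1 to 5, against no read, no read, 7.76, 13.22 and 1.36 in WT 1 to 5. Krtap4-6 had 6.58, 8.91, 9.71, no read and 8.09 in STAT3cKO 1 to 5, against 13.43 in WT 4 and no read in the other 4 WT libraries. The 8.91 of Krtap4-6 in STAT3cKO 2, an estimated 342 reads, stood beside no read of the other 18 members of its class in that library. Krtap4-16 had 8.08, 11.45 and 9.45 in STAT3cKO 1, 3 and 5, against 14.40 in WT 4, and no read elsewhere. Krtap17-1 had 8.64, 10.78 and 9.49 in STAT3cKO 1, 3 and 5, against 11.60 in WT 4 and 1.26 in WT 3. Krtap5-1 and Krtap9-5 had no read in any library, and for Krtap5-1 49.6% of the windows in its last 400 bases occur in other genes. For Krtap4-13 the share was 96.3%, so its values are uncertain. In all, 21 members shared at least 1 such window with another gene and 8 shared over 10%.

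Shaft and inner root sheath were then set apart by summing the un-logged values of each class. The shaft keratin level was 12.55, 8.51, 17.69, 5.12 and 13.84 in STAT3cKO 1 to 5, against 8.63, 6.60, 9.80, 17.84 and 7.02 in WT 1 to 5 (log2 of the sum + 1). The sheath keratin level was 14.44, 0.43, 16.42, 0.77 and 13.15 in STAT3cKO 1 to 5, against 0, 1.35, 9.35, 17.44 and 7.35 in WT 1 to 5. Krtap genes together stood at 13.27, 11.04, 18.40, 10.36 and 14.86 in STAT3cKO 1 to 5, against 9.42, 6.86, 11.22, 19.36 and 7.83 in WT 1 to 5. All 3 levels had the same 4 highest libraries. In STAT3cKO 2, STAT3cKO 4, WT 1 and WT 2 the shaft level came mainly from Krt32 or Krt84 and the Krtap level mainly from Krtap3-2, and sheath keratins had a single read or none in STAT3cKO 2, STAT3cKO 4 and WT 1.

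**Figure D3:**
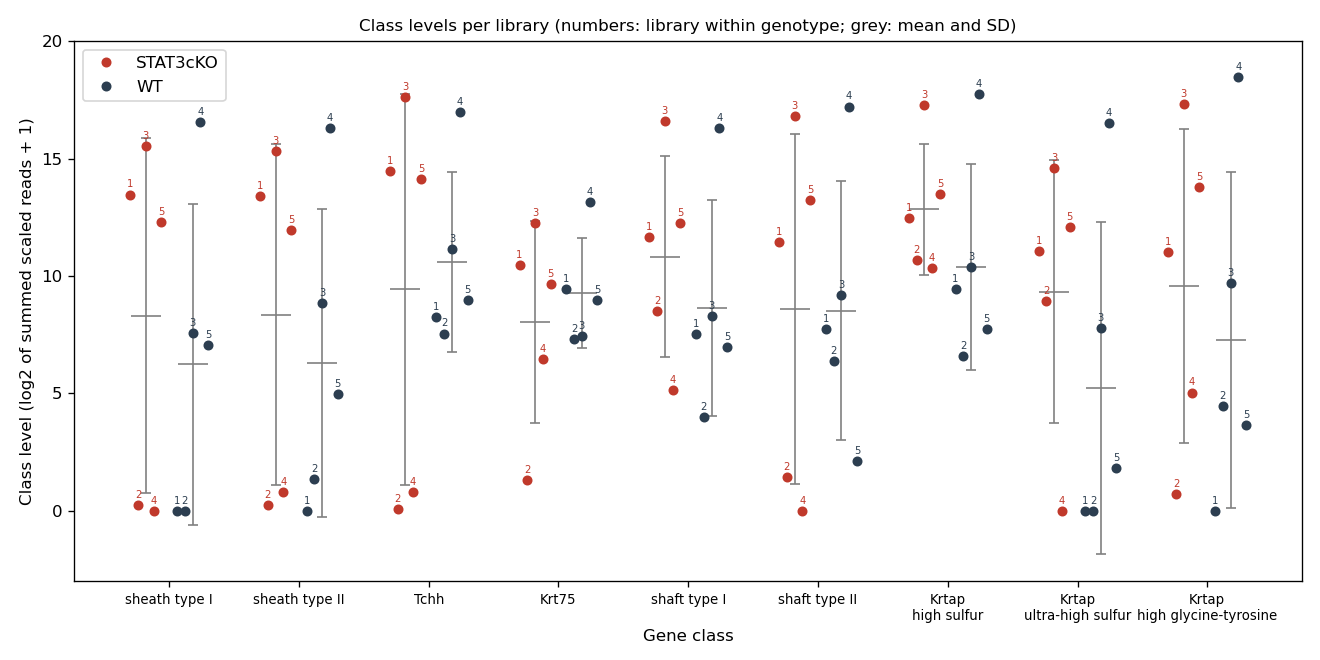
Level of each gene class (y axis, log2 of summed scaled reads + 1) in each library, with STAT3cKO points left of WT points and the library number above each point. Grey bars give the mean and SD of each genotype, and they overlap in every class, with STAT3cKO 3 and WT 4 at the top.

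The balance of the 2 compartments differed between libraries that were rich in hair genes. Sheath minus shaft level was 1.89, -8.08, -1.27, -4.35 and -0.69 in STAT3cKO 1 to 5, against -8.63, -5.25, -0.45, -0.40 and 0.33 in WT 1 to 5. Sheath keratins exceeded shaft keratins in STAT3cKO 1, while in STAT3cKO 3, STAT3cKO 5 and WT 4 shaft keratins were the higher. High glycine-tyrosine minus high sulfur level was -1.46, -9.96, 0.02, -5.29 and 0.30 in STAT3cKO 1 to 5, against -9.42, -2.10, -0.68, 0.72 and -4.11 in WT 1 to 5. STAT3cKO 1 was thus the library with many sheath keratin reads, fewer shaft reads and fewest high glycine-tyrosine reads among these 4.

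Members with a value of 5 or more in WT 4, the library with the most hair gene reads, were also set against that library gene by gene. They were kept through their WT 4 value, so differences below WT 4 are built in, and the medians describe the same values as the class levels and lend them no support. In STAT3cKO 1 the median difference was -4.21 for sheath keratins, -4.91 for shaft keratins, -5.19 for high sulfur, -5.73 for ultra-high sulfur and -9.14 for high glycine-tyrosine genes (log2, 7, 13, 18, 17 and 14 members with a value of 5 or more in WT 4). In STAT3cKO 5 these medians were -4.71, -4.05, -4.05, -5.34 and -4.95, without the step at the high glycine-tyrosine class. In STAT3cKO 3 they were -1.31, -0.24, -0.54, -1.58 and -1.54, and 5 shaft keratins and 5 high sulfur genes were above their WT 4 values, against 0 sheath keratins and 0 high glycine-tyrosine genes. The ultra-high sulfur class had 2 such genes. The grading over classes was a feature of STAT3cKO 1 only among these 3 libraries. These are differences between single libraries and carry no test.

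**Figure D4:**
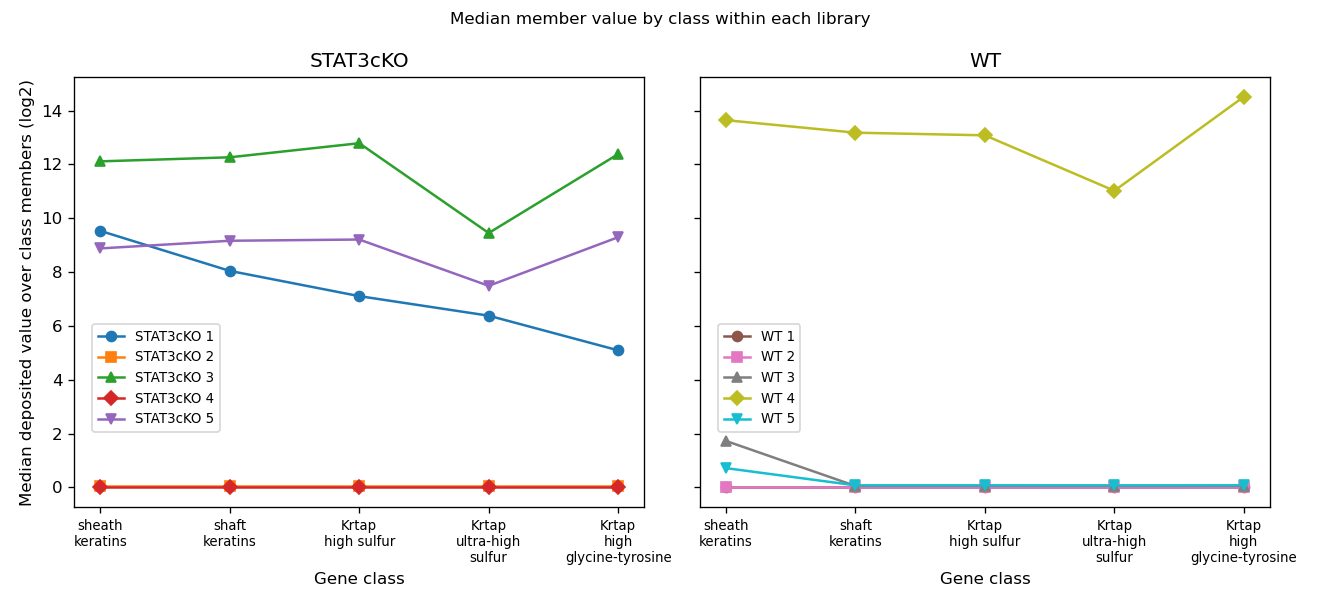
Median deposited value (log2) over the members of each class, 1 line per library, with STAT3cKO libraries in the left panel and WT libraries in the right. STAT3cKO 1 declines from 9.53 in sheath keratins to 5.09 in high glycine-tyrosine genes, while STAT3cKO 3, STAT3cKO 5 and WT 4 dip at the ultra-high sulfur genes and recover.

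Between genotypes, no hair gene passed the test. With limma and Benjamini-Hochberg adjustment over all genes tested, 0 of the 21 members tested were called at an adjusted p under 0.05, against 114 of 11536 genes (0.988%; 0.529% higher and 0.459% lower in STAT3cKO). Before adjustment 1 of the 21 was under 0.05, against 10.9% of all tested genes. The other 55 members had a value of 5 or more in fewer than 5 libraries and were not tested. Krt32 had the lowest p, with a difference of 4.45 (SE 2.06, 95% interval 0.06 to 8.83, limma adjusted p = 0.453), and was the 1 member below 0.05 before adjustment. Krtap3-3 followed at 5.09 (SE 2.67, limma adjusted p = 0.524), Krtap4-6 at 3.94 (SE 2.63, limma adjusted p = 0.596) and Krtap3-2 at 2.51 (SE 2.14, limma adjusted p = 0.699). These 4 had over 10 reads in STAT3cKO 2, STAT3cKO 4 or both, as did only Krt75 and Krtap19-9b of the other 72 members. Leaving out WT 4 raised the members called to 1, Krtap3-3 at 7.69 (limma adjusted p = 0.0459, against 0.469 to 0.742 in the other alternatives), and the genes called to 207. Without STAT3cKO 1, STAT3cKO 5, WT 1 or WT 2 the genes called numbered 61, 72, 62 and 62, with 0 members among them.

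Differences were positive for 17 of the 21 tested members, with a median of 2.05, against -0.16 over all tested genes. The negative ones were Krt84 at -1.84, Krt75 at -1.25, Tchh at -1.17 and Krtap15 at -0.58, of which Tchh turned to 0.24 with a pseudocount of 16 and Krtap15 to 0.24 with quantile normalization. Over all 72 members with a read, 60 differences were positive and 12 negative. Most members share their highest libraries, STAT3cKO 1, 3 and 5 and WT 4, so these signs are not independent and count no replicates. With 1 library left out, the median of the tested members ranged from 0.24 (without STAT3cKO 3) to 4.33 (without WT 4). The intervals were wide: they reached to either side of the difference by a median of 7.11 and by 4.38 at the least, so changes of several log2 units in either direction lie within them for most members. That no member was called does not show that the genotypes were alike. The 9 class levels differed by -1.25 to 4.12 between genotypes, and by less than 1 SD within either genotype in each class.

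**Figure D5:**
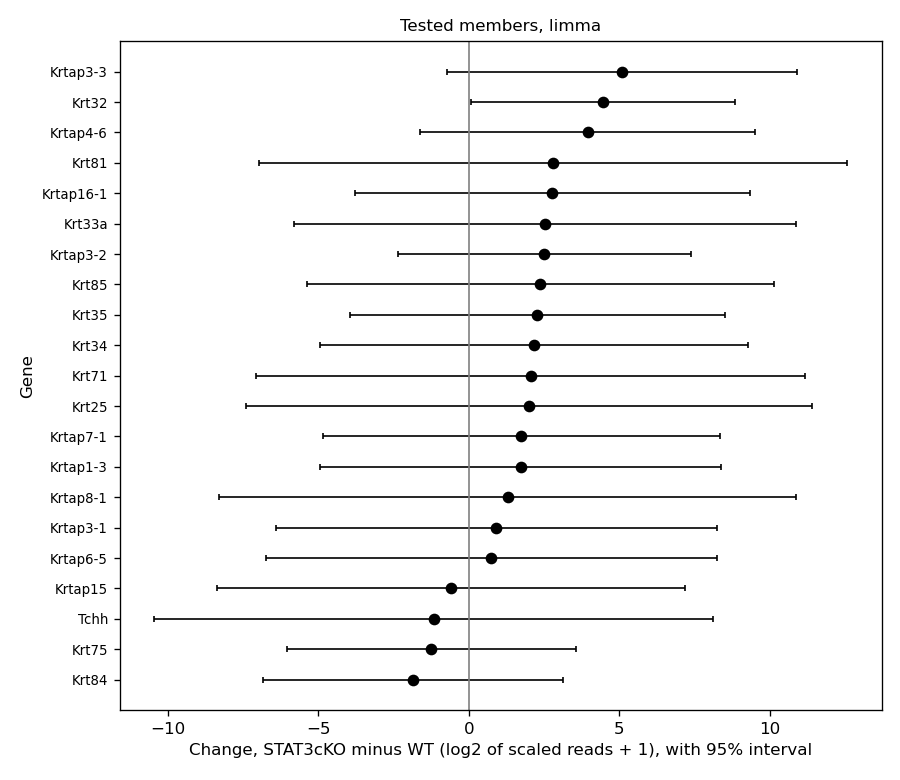
Difference between genotypes, STAT3cKO minus WT (x axis, log2 of scaled reads + 1), for the 21 tested members (rows), with the 95% interval of limma as bars. Every interval but that of Krt32, 0.06 to 8.83, spans 0.

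The spread within a genotype was far larger than for other genes. The residual SD of the tested members had a median of 6.13 (3.47 to 7.29), against 1.53 over all tested genes, and in 18 of the 21 it was above 3.95, the 99th percentile of all tested genes. Over members with a read the median SD was 5.32 within STAT3cKO and 5.83 within WT, so both genotypes held it. Low libraries held no read of most members, which widens a spread on the log2 scale.

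Many, but not all, genes of the hair matrix outside the rule had the hair genes' 2 highest libraries. Of 39 such genes in the files, 26 were tested, 0 were called in either direction and 4 had no read in any library, Dsg4 and Foxe1 among them, and the median difference was 0.56. Their mean log2 value was 6.75, 2.50, 8.67, 4.15 and 6.58 in STAT3cKO 1 to 5, against 3.83, 4.36, 4.12, 9.26 and 3.94 in WT 1 to 5. STAT3cKO 3 and WT 4 were the 2 highest libraries for 25 of the 35 genes with a read, and STAT3cKO 1, 3 and 5 and WT 4 the 4 highest for 14. Hoxc13, a homeobox factor that acts on hair keratin genes, had 8.66, no read, 9.89, 4.16 and 7.85 in STAT3cKO 1 to 5, against 2.10, 4.13, no read, 10.08 and 6.23 in WT 1 to 5. Hoxc13 was thus highest in the libraries with the most hair gene reads, with overlap between genotypes. Msx2, a matrix homeobox gene, and Padi3, a deiminase of the sheath and medulla, had reads only in STAT3cKO 1, 3 and 5 (4.75 to 11.19) and WT 4 (10.24 and 11.31). Shh, the growth signal of the matrix, had reads only in STAT3cKO 3, at 7.02, and WT 4, at 7.30. Others did not have these 2 highest libraries. Bmp4, a signal from the follicle's mesenchyme, was at 9.38 to 10.58 in STAT3cKO libraries and 9.34 to 10.30 in WT libraries. Wnt10a was highest in WT 5, at 8.51. Wnt10b had reads only in WT 4, at 3.03, and WT 5, at 6.37. Tgm5, a transglutaminase, was highest in STAT3cKO 1, at 8.82, and WT 3, at 8.44, with 5.15 in STAT3cKO 3 and 6.36 in WT 4. The 2 genes of the list with the lowest p were Padi1 at 4.47 (SE 2.04, limma adjusted p = 0.440) and Ovol1 at 1.48 (SE 0.71, limma adjusted p = 0.468).

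Other cell types of the growing bulb were measured beside them. For 10 melanocyte genes the mean log2 value was 5.85, 3.55, 5.10, 4.47 and 5.01 in STAT3cKO 1 to 5, against 2.74, 2.99, 3.63, 8.56 and 4.04 in WT 1 to 5, with 5 tested, 0 called and a median difference of 1.06. For 17 genes of dividing cells it was 7.40, 3.97, 7.15, 5.27 and 7.79 in STAT3cKO 1 to 5, against 5.70, 5.49, 4.49, 8.59 and 5.44 in WT 1 to 5, with 14 tested, 0 called and a median difference of 0.52. STAT3cKO 1, 3 and 5 and WT 4 had the 4 highest means in both lists. Gene by gene, they were the 4 highest for 2 of 10 melanocyte genes and 3 of 17 genes of dividing cells. These libraries also had the 4 highest means for follicle stem and outer root sheath genes. The means were 10.62, 9.77 and 11.002 in STAT3cKO 1, 3 and 5 and 9.78 in WT 4, with 9.09 in STAT3cKO 4 next. They were the 4 highest libraries for 5 of 13 single genes of that list, and for 3 of 11 interfollicular epidermis genes. Follicle stem and outer root sheath genes ranged over 6.64 to 11.002 in STAT3cKO libraries and 6.56 to 9.78 in WT libraries, and 1 of 12 tested, Krt79, was higher (2.67, SE 0.35, limma adjusted p = 0.00046). Dermal papilla genes ranged over 1.02 to 5.39 in STAT3cKO libraries and 2.32 to 5.16 in WT libraries, with 0 of 4 called. The part that the makeup of each skin piece has in the hair gene levels was not tested.

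By their list means, other skin compartments had other orders of libraries. Of 11 tested interfollicular epidermis genes 0 were called, with a median difference of 1.21 and list means of 10.2 to 12.8 over the libraries. Sebaceous gland genes were called higher in 4 of 10, Elovl3, Fa2h, Soat1 and Krt79, and lower in 0, with a median difference of 1.22. The list did not move as 1: Scd3, not called, was at no read to 7.80 in STAT3cKO libraries and 8.77 to 11.2 in WT libraries. The sebaceous list mean was 9.57 in STAT3cKO 3 and 9.33 in WT 4, the lowest of each genotype. Adipocyte genes averaged 9.07 to 11.2 in STAT3cKO libraries and 11.6 to 13.7 in WT libraries, with 1 of 12, Car3, called lower and the lowest mean of each genotype again in STAT3cKO 3 and WT 4. Skeletal muscle genes averaged 7.97 to 13.4 in STAT3cKO libraries and 10.4 to 14.0 in WT libraries, with 0 of 12 called and a median difference of -1.40. Fibroblast genes had 1 of 8, Dpt, called lower, and macrophage genes 0 of 9, with list medians of -0.27 and -0.62. Whether these compartments bear on the hair gene values was not tested.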

How the data were processed

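Per the labels' protocols, total RNA from whole skin was extracted with Trizol and made into libraries with the Lexogen QuantSeq 3′ kit. The submitters' processing notes name Bowtie2, bedtools and build mm10. Tool versions, the annotation, strand use and the scaling were not given in the sources used here. What the authors deposited was 1 table per library, with values that behave as log2 of scaled reads plus a pseudocount of 1, as read from the values, since no header names a unit. Each library's low values lay on steps, the worth of 1 read, and 86.9 to 100% of values up to 20 reads came out whole within 0.15 of a read. Estimated depth is the un-logged sum divided by that step. A gene under 0.5 of a read counts as without a read, and such genes carry values of up to 0.08. Without molecular identifiers, depth, intervals and read estimates cover counting error only.

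Genes with a value of at least 5 in at least 5 libraries were tested with limma 3.58.1 in R 4.3.3 (genotype as the only term, mean trend, robust moderation), with Benjamini-Hochberg adjustment over the 11536 tested genes and a threshold of 0.05. Differences are STAT3cKO minus WT on the log2 scale, on which genes with few reads show too small a change. Class levels are log2 of 1 plus the summed un-logged values and have no test. Proteins were translated from GENCODE release M21 coding sequences to class Krtap genes (glycine plus tyrosine at least 35% with cysteine under 30%, cysteine at least 30%, or the rest). Of the 76 members, 75 matched 1 annotated gene. Krtap10-4 (30.3% cysteine) is just inside its class, the lowest glycine plus tyrosine share inside the glycine-tyrosine class is 47.5% (Krtap8-1), and Krtap2-4 (29.8% cysteine) and Krtap7-1 (29.9% glycine plus tyrosine) are just outside. Named genes are all keratins and Tchh, the 4 Krtap genes of highest mean and the 2 of lowest p per class, and called list members or the 2 of lowest p. The values of some of these stand in ranges, and Krtap and hair matrix genes named beyond the rule (Krtap6-2, Krtap19-5, Hoxc13, Msx2, Padi3, Shh, Bmp4, Wnt10a, Wnt10b, Tgm5 and those without reads) were chosen after their values were seen. The members, classes, gene lists and alternatives were chosen with earlier results of these data known. Of these steps, only the limma fit was tested on simulated data. Python 3.11.15 and matplotlib 3.10.9 drew the figures.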

Additional observations from a re-analysis of the deposited data

Results flagged for a closer look

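Of 42 results looked at within each genotype, 16 values stood far from the other 4 libraries of their group by Dixon's criterion for 5 samples, and all 16 were the WT 4 value among WT libraries. Chance sets apart about 1 in 20 groups of normally distributed values, a rate that does not hold here. Where the other WT libraries had no read, even a few reads in WT 4 met the criterion, as in Krt74 with an estimated 7.7 reads. These genes also share 1 library and are not independent. Among inner root sheath keratins the WT 4 values were 13.035 for Krt26, 14.978 for Krt27, 12.561 for Krt28, 8.662 for Krt72, 14.247 for Krt73 and 3.356 for Krt74. Among shaft keratins they were 13.662 for Krt31, 13.601 for Krt33b, 10.054 for Krt82, 5.664 for Krt83 and 13.177 for Krt86. Among Krtap genes they were 13.431 for Krtap4-6, 14.401 for Krtap4-16, 11.599 for Krtap17-1, 14.52 for Krtap19-9b and 14.504 for Krtap19-3. No value of a STAT3cKO library met the criterion, since STAT3cKO 1 and 5 lay between STAT3cKO 3 and the low libraries in most of these genes.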

How the results depend on the processing

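Members called numbered 0 in each full-library alternative (no filter with 72 members tested, a looser filter with 67, equal totals, quantile normalization, pseudocount 16, neither trend nor robust moderation, the replicate block) and without STAT3cKO 2 and WT 3, and 0 to 1 when each library was left out in turn. Genes called numbered 96, 127, 115, 176, 175, 44 and 66 in these 7 alternatives, 94 without STAT3cKO 2 and WT 3, and 61 to 207 with 1 library left out. Equal totals split the calls into 76 higher and 39 lower, against 61 and 53, and moved the median change of all tested genes from -0.16 to -0.05. Same-numbered libraries did not deviate together over the tested genes (correlations of -0.155 to 0.016). This cannot exclude a shared origin, and the labels give the numbers no meaning. The replicate block called 66 genes and 0 members. Differences that changed sign were small beside their errors. Tchh was at 0.24 with pseudocount 16 and 1.31 without STAT3cKO 2 and WT 3, and Krtap15 at 0.24 with quantile normalization and 1.22 without those libraries. With 1 library left out, Krt75 ranged over -2.31 to 0.43, Tchh over -3.22 to 1.17, Krtap3-1 over -1.07 to 3.19, Krtap15 over -2.84 to 1.74, Krtap8-1 over -0.82 to 3.84 and Krtap6-5 over -0.90 to 3.40. The cause was not tested. Class level differences moved by less than 1 SD under every alternative run. With 5 libraries per genotype, leaving out 1 cannot move a difference that far, so those runs do not test stability. With 1 library left out, the type II shaft keratin difference ranged from -1.99 to 2.24 and changed sign. The limit is the spread between libraries, with 5 per genotype and most members at no read in 6 of the 10. Depth in the libraries richest in hair genes, 9940000 reads in STAT3cKO 3 and 9490000 in WT 4, lay within the range of the others.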
